A study of Mus musculus with 23 samples.

Results

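The 37 genes described here encode the machinery that moves new proteins into the endoplasmic reticulum (ER), adds N-linked sugars to them, folds them and packs them into COPI and COPII transport vesicles. They were taken by name from a list, out of 23481 genes in each count table. The list was made with earlier results of these data known, and counts over it are given as descriptions. It holds 6 genes of the oligosaccharyltransferase (OST), 5 of the Sec61 translocon and 4 of the translocon-associated protein complex (TRAP). The rest are 7 of the COPI coat, 10 of the COPII coat, and 5 ER lectins and disulfide isomerases. The tables come from 23 RNA-seq libraries of mouse olfactory epithelium, the sheet of tissue that detects odors. The RNA was captured through ribosomal protein S6 in its phosphorylated form (pS6), a mark that appears on the ribosomes of a neuron after it has fired. All mice were C57BL/6 animals at postnatal day 21, and each odor was presented for 1 h. The acetophenone experiment had 3 libraries at 100% (litters 1 to 3), 3 at 1% (litters 3 to 5) and 5 control libraries (litters 1 to 5). The TMT experiment had 4 libraries at 100%, 4 at 1% and 4 controls, 1 of each from every one of litters 1 to 4. No transgene or mutation is labelled, and no source used here says how many animals went into a library.

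A protein bound for the cell surface is threaded through the Sec61 channel while OST transfers a preassembled glycan onto it, and the lectins calnexin and calreticulin then hold it until it is folded. COPII vesicles carry the folded protein from the ER to the Golgi, and COPI vesicles carry components back. Secretory gland cells make heavy use of this route, and olfactory neurons use it to send odorant receptors to their cilia, a step for which many receptors need helper proteins.

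Unique counts per library ran between 2118099 and 9526932, with 2672161 to 8347796 at 100% TMT and 4069851 to 7609265 in the TMT controls. All 9 listed markers of mature olfactory neurons, such as Omp and Cnga2, were detected in every group, with summed levels of 1922 to 7389 CPM (counts scaled to a common library total). Stt3b had at least 218 counts and Copb2 at least 52 in every library. In pS6-captured RNA from a mixed tissue, the number of cells of a type, their RNA content and the share captured cannot be told apart. None of the libraries held uncaptured RNA, so a level here is a share of the captured RNA. The library codes change between litter 1 and litters 2 to 4 of the TMT experiment, and between litters 1, 2 to 3 and 4 to 5 of the acetophenone experiment. The labels do not say whether these codes mark batches, and code series and litter cannot be told apart.

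The first comparison asks whether the genes differed between mice given 100% TMT and the controls of the same 4 litters. The main model, which has no litter term, called none of them. With litter as a block, 3 of the 36 tested genes rose with 100% TMT and none fell. Of all genes, 1.84% were called higher in that fit and 0.529% lower. The 3 were Stt3b, a catalytic subunit of OST, Sec63, which works beside the Sec61 channel, and Copb2, a COPI coat subunit. Their fitted increases were 2.62-fold, 18.6-fold and 7.7-fold. The median log2 fold change over the 36 genes that passed the filter on low counts was 0.51, with 30 of 36 above 0, against 0.02 over all 13233 genes tested. Sec61g did not pass the filter.

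The calls depended on whether litter was in the model. Without it, edgeR's quasi-likelihood test called none of the 36 genes and 0.0% of all genes tested at an adjusted p of 0.05, and DESeq2 called 6 of the 36 higher, against 2.33% of all genes. Before adjustment, 12 of the 36 had a p under 0.05 upward and 0 downward in that fit, against 8.33% of all genes higher. With litter as a block, the 3 called genes stood against 1.84% of all genes called higher, and the count of 0 lower against 0.529% called lower. In that fit 19 of the 36 were higher at an unadjusted p under 0.05, against 11.4% of all genes, and DESeq2 with the block called 11 higher, against 6.94% of all genes. The lowest adjusted p without the block was 0.102, for Stt3b (edgeR). The count of 3 fell to 0 when litter 2, 3 or 4 was left out, or only the control library of litter 2 or the 100% library of litter 2, 3 or 4. It fell to 1 without the control of litter 3 or 4, and it was 5 without the 100% library of litter 1 or the 1% library of litter 4. A GC and length correction in the same blocked fit called Stt3b, Sec63 and Rpn2, and no longer Copb2.

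**Figure D1:**
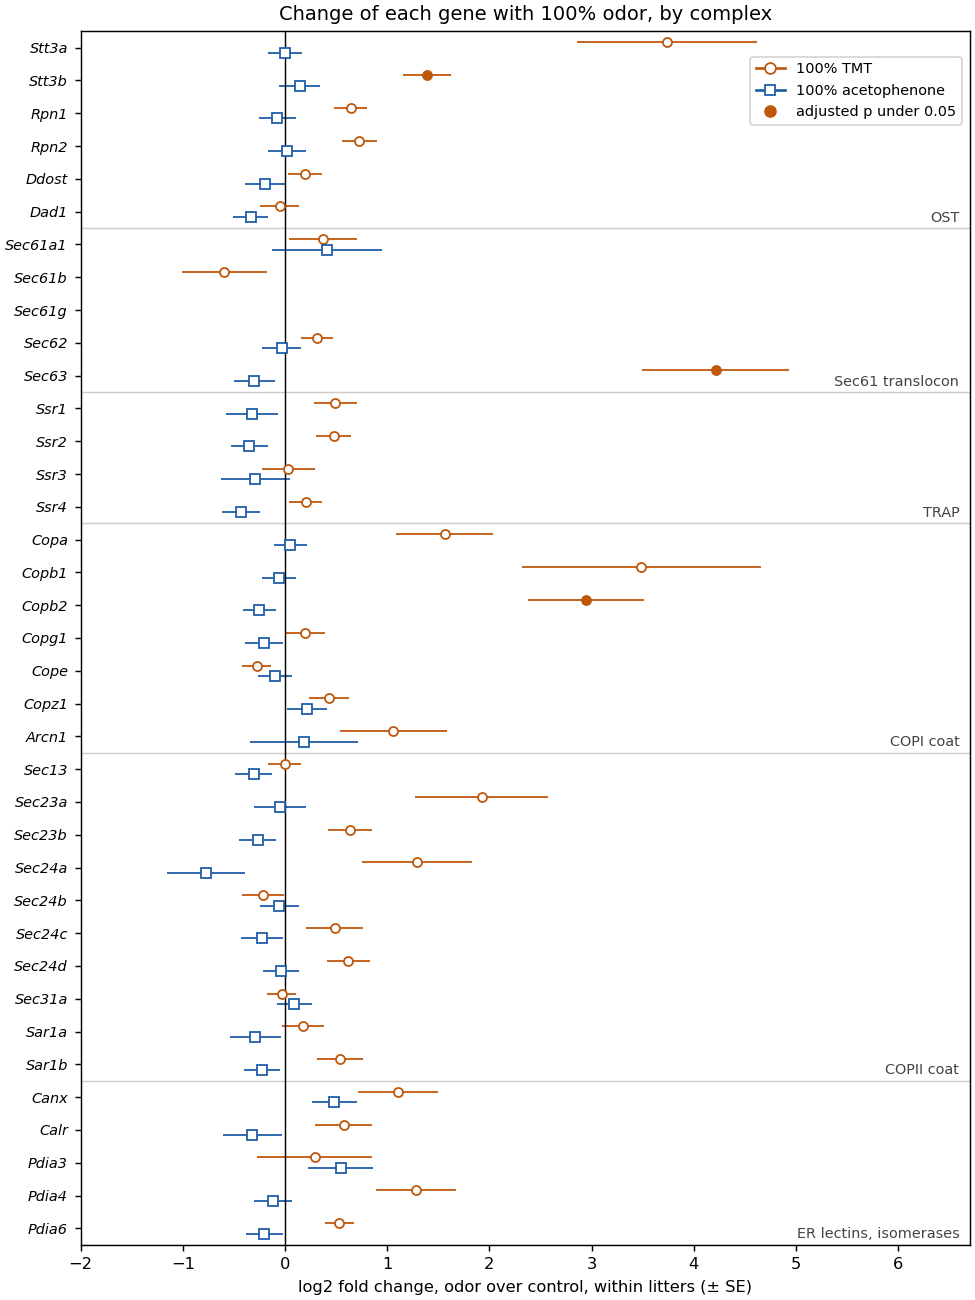
Log2 fold change (x axis) of each tested member, by complex, for 100% TMT (circles) and 100% acetophenone (squares) against controls in the fit with litter as a block. Bars are 1 standard error and filled symbols have an adjusted p under 0.05. The 3 filled circles are Stt3b at 1.39, Sec63 at 4.22 and Copb2 at 2.95, and the acetophenone squares lie between -0.78 and 0.55.

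Of the OST genes only Stt3b passed the edgeR test with litter as a block, and none passed it without the block. Its levels were 207, 269, 242 and 289 CPM at 100% TMT in litters 1 to 4, against 127, 75.6, 71.2 and 136 CPM in the controls. Every 100% library lay above every control, with means of 252 ± 35.7 and 103 ± 34.0 CPM (SD, n = 4 each). The log2 fold change was 1.39, with an SE of 0.24 and an edgeR adjusted p of 0.0213 in the blocked fit. The gene covers chr9:115242470-115310468 in GRCm38. Its paralog Stt3a is the catalytic subunit of the OST form that acts at the Sec61 channel, while the Stt3b form can also act on sites that were missed there.

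Stt3a had 203, 23.3, 11.5 and 197 CPM at 100% TMT, against 2.15, 4.10, 3.54 and 6.48 CPM in controls. The groups did not overlap, yet litters 1 and 4 stood near 200 CPM and litters 2 and 3 below 25, so that the ratio to the litter's control ran between 3.24 and 94.4. The log2 fold change of 3.74 (SE 0.88) missed the threshold at an edgeR adjusted p of 0.0505 with the block. Rpn2 and Rpn1, the ribophorins that hold OST at the ribosome, came next. Rpn2 had 522, 713, 546 and 795 CPM at 100% TMT, against 420, 327, 364 and 513 CPM in controls, again with no overlap. Its log2 fold change was 0.73 (SE 0.17, edgeR adjusted p = 0.0507 with the block), and 0.74 (edgeR adjusted p = 0.0474) with the GC and length correction added. Rpn1 had 594, 920, 895 and 741 CPM at 100% TMT, against 436, 495, 456 and 702 CPM in controls, so it was higher in each of the 4 litters while the groups overlapped (edgeR adjusted p = 0.0598 with the block). Ddost and Dad1, noncatalytic subunits, had log2 fold changes of 0.20 and -0.05. The 6 genes summed to 2629 ± 273 CPM at 100% TMT and 1872 ± 340 CPM in controls (SD, n = 4 each), with litter ratios of 1.18 to 1.76.

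Sec63, which recruits the chaperone BiP to the channel, lies at chr10:42761496-42832514 in GRCm38. It had 81.9, 64.5, 42.6 and 117 CPM at 100% TMT, against 20.8, 2.05, 2.41 and 4.07 CPM in controls. These rest on 213, 393, 115 and 917 counts at 100% TMT, and on only 87, 12, 17 and 22 counts in the controls. The groups did not overlap, with litter ratios of 3.95 to 31.4 and the blocked edgeR fit gave a log2 fold change of 4.22, an SE of 0.72 and an adjusted p of 0.0213. Sec62, its partner in the channel, had a log2 fold change of 0.31, and Sec61a1, the pore itself, 0.37, neither past the threshold. Most reads of Sec61b and Sec61g also match elsewhere in the genome: unique counts were 1.49% and 2.52% of their estimated counts, so their levels are uncertain.

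Of the TRAP genes, which help some proteins enter the channel, none passed the test. Ssr1 and Ssr2 had log2 fold changes of 0.49 and 0.48 (edgeR adjusted p = 0.226 and 0.15 with the block), and Ssr4 and Ssr3 had 0.20 and 0.03. These 4 genes summed to 1511 ± 426 CPM at 100% TMT and 1285 ± 400 CPM in controls (SD, n = 4 each), higher in 3 of 4 litters.

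The COPI genes split by subunit. Copb2 (β′-COP, at chr9:98563731-98588375 in GRCm38) had 235, 64.8, 22.2 and 241 CPM at 100% TMT, against 23.6, 11.1, 10.1 and 9.63 CPM in controls. Litters 1 and 4 again held the high values, the lowest 100% library lay just under the highest control, and each litter's ratio was at least 2.21. The log2 fold change was 2.95 (SE 0.56, edgeR adjusted p = 0.0293 with the block, 0.0564 with the GC and length correction added). Copb1 (β-COP) also had its high values in litters 1 and 4, with 155, 11.5, 22.6 and 138 CPM at 100% TMT, against 2.15, 8.21, 2.98 and 1.67 CPM in controls. With litter ratios of 1.4 to 83.1 its log2 fold change of 3.49 had an SE of 1.17 and an edgeR adjusted p of 0.131 with the block. Copa (α-COP) had 192, 155, 163 and 212 CPM at 100% TMT, against 180, 9.40, 50.7 and 96.3 CPM in controls, which overlapped (edgeR adjusted p = 0.101 with the block). Cope (ε-COP), which had the highest level per kilobase of the 7 in the TMT controls, was lower in all 4 litters, with 616, 1124, 811 and 959 CPM at 100% TMT, against 717, 1324, 1025 and 1397 CPM in controls. Its log2 fold change of -0.28 did not pass the test (edgeR adjusted p = 0.3 with the block). The COPI sum was close between groups, at 1558 ± 289 CPM with 100% TMT and 1454 ± 279 CPM in controls (SD, n = 4 each).

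In the COPII coat 5 of 10 genes were higher at an unadjusted p under 0.05, against 11.4% of all genes in the blocked fit. None passed the adjusted threshold. Sec23a, an inner coat subunit, had 12.7, 8.86, 9.27 and 14.8 CPM at 100% TMT, against 8.36, 0.513, 2.41 and 7.41 CPM in controls, with no overlap but on 3 to 40 counts in the controls (log2 fold change 1.93, edgeR adjusted p = 0.133 with the block). Its abundant paralog Sec23b had a log2 fold change of 0.64, and Sec24d, a cargo-binding subunit, 0.62. The outer cage genes Sec31a and Sec13 had values of -0.03 and -0.01, and Sec24b -0.22. Sar1a and Sar1b, the GTPases that start the coat, had 0.18 and 0.54.

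All 5 ER lectins and disulfide isomerases had a positive log2 fold change, as had 30 of the 36 tested members in the blocked fit. None of the 5 passed the test. Pdia6 had 296, 543, 446 and 396 CPM at 100% TMT, against 227, 312, 318 and 338 CPM in controls, higher in each litter (log2 fold change 0.53, edgeR adjusted p = 0.0724 with the block). Canx (calnexin) and Pdia4 had log2 fold changes of 1.11 and 1.28 (edgeR adjusted p = 0.147 and 0.104 with the block). Calr (calreticulin) had 0.57, and Pdia3, which works on proteins held by these lectins, had 0.29. The 5 genes summed to 639 ± 111 CPM at 100% TMT and 432 ± 51.2 CPM in controls (SD, n = 4 each), with litter ratios of 1.21 to 1.95.

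**Figure D2:**
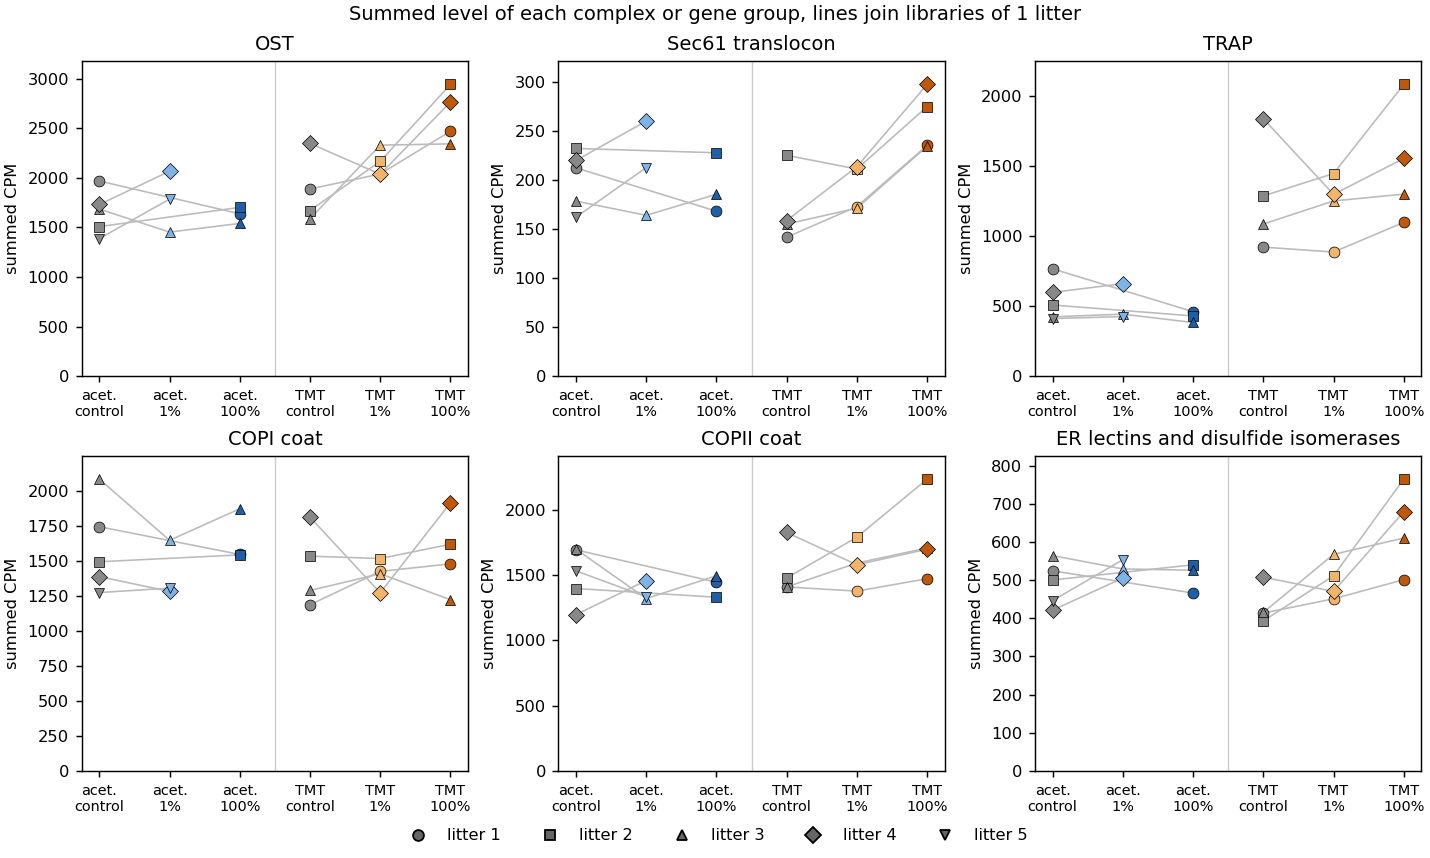
Summed CPM (y axis, starting at 0) of the genes of each of the 6 groups in every library, with lines joining libraries of 1 litter. In the TMT panels the OST, Sec61 and lectin sums lie higher at 100% than in controls in 4 of 4 litters, and the TRAP, COPI and COPII sums in 3 of 4.

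All 37 genes together summed to 8376 ± 1270 CPM at 100% TMT and 6745 ± 1202 CPM in controls (SD, n = 4 each), higher in 4 of 4 litters by 1.05 to 1.51 times. For 6 of the 36 tested genes (Stt3a, Stt3b, Rpn2, Sec63, Copb1 and Sec23a) every 100% TMT library lay above every control, as did 4.21% of all genes tested. In 4 of 4 litters 15 genes were higher at 100% TMT, against 13.2% of all genes, and 3 (Sec61b, Cope and Sec24b) were lower, against 15.9%.

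The start regions of the genes are shown because many ER genes are driven by shared response elements. RefSeq promoters (GRCm38.p6, 250 bases before to 50 after the start) matched 34 of the 37 genes. Windows from 250 bases before to 10 after the start of the 3 genes called in the blocked fit follow, 5′ to 3′ on the gene's strand. Capitals mark a CCAAT box (CCAAT, or ATTGG for the other strand) in Stt3b and Sec63. In Copb2 they mark the core of the unfolded protein response element (TGACGTGG, or CCACGTCA for the other strand).
Stt3b: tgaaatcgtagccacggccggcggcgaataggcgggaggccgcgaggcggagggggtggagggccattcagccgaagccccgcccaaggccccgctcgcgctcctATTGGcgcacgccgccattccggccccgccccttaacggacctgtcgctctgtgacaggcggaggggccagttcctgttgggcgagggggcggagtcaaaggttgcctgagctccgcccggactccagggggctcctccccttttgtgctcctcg
Sec63: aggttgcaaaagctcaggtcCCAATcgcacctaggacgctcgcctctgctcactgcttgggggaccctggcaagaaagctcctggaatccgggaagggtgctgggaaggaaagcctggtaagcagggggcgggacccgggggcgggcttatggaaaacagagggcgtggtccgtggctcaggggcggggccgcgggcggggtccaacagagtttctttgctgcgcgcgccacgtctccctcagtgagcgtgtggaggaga
Copb2: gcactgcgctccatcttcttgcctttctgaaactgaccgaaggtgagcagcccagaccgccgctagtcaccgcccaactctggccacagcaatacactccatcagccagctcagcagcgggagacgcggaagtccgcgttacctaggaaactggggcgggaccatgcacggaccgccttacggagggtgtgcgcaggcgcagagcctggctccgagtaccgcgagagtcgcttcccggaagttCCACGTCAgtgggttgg
They lie at chr9:115310459-115310718 on the minus strand, chr10:42761246-42761505 on the plus strand and chr9:98563481-98563740 on the plus strand.

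The core TGACGTGG was found on either strand in 4 of the 34 promoters (11.8%), against 0.714% of 27025 promoters. All 4 belong to coat genes, and those of Copb1 and Sec24d are shown beside that of Copb2, with 15 bases on each side and the core in capitals.
Copb1: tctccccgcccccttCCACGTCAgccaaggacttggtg
Sec24d: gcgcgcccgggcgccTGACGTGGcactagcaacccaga
The windows lie at chr7:114254686-114254723 (minus strand) and chr3:123267455-123267492 (plus strand).

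The ER stress element, CCAAT and CCACG with 9 bases between them, was found in 3 of the 34 promoters (8.82%), against 0.137% of all. It stood in the lectin and isomerase genes Calr, Canx and Pdia6, shown with Hspa5, which encodes BiP, for comparison. Capitals mark the whole element, which lies on the other strand in Calr.
Calr: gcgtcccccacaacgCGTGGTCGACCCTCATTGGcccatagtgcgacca
Canx: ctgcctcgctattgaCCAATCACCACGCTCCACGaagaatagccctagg
Pdia6: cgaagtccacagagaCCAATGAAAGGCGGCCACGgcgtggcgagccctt
Hspa5: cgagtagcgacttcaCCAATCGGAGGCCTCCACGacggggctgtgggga
These are chr8:84847060-84847108 (minus), chr11:50325785-50325833 (minus), chr12:17266476-17266524 (plus) and chr2:34772010-34772058 (plus). The plain CCAAT box was common, with 19 of 34 (55.9%) against 41.1% of all promoters; each ER stress element holds one. A match is a description of letters, not evidence of binding.

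The size of the change went with the base composition of the transcripts. Stt3a (40.5% GC), Copb1 (42.6%), Sec63 (43.5%) and Copb2 (46.0%) lay below the median of all genes, 49.0%, while Cope (56.5%) was the richest. Not every low-GC gene changed: Ssr3 (40.8%) and Sec62 (42.4%) had 100% TMT means of 0.946 and 1.17 times the control means. Stt3b, which was called, lay at the median with 49.0%. Across the 36 genes the Spearman correlation of the blocked 100% TMT log2 fold change with GC was -0.50, and across all 13114 genes with a known transcript -0.45, given as descriptions since genes share the same libraries. Transcripts under 45% GC took 8.38% to 12.8% of counts at 100% TMT and 6.92% to 8.21% in the controls. After the GC and length correction the 36-gene correlation was -0.05, the median log2 fold change 0.38 and 26 of 36 were above 0. Stt3b then had 1.18 (edgeR adjusted p = 0.0368) and Sec63 3.53 (edgeR adjusted p = 0.0409). What part the base composition of the libraries has in the remaining values was not tested.

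**Figure D3:**
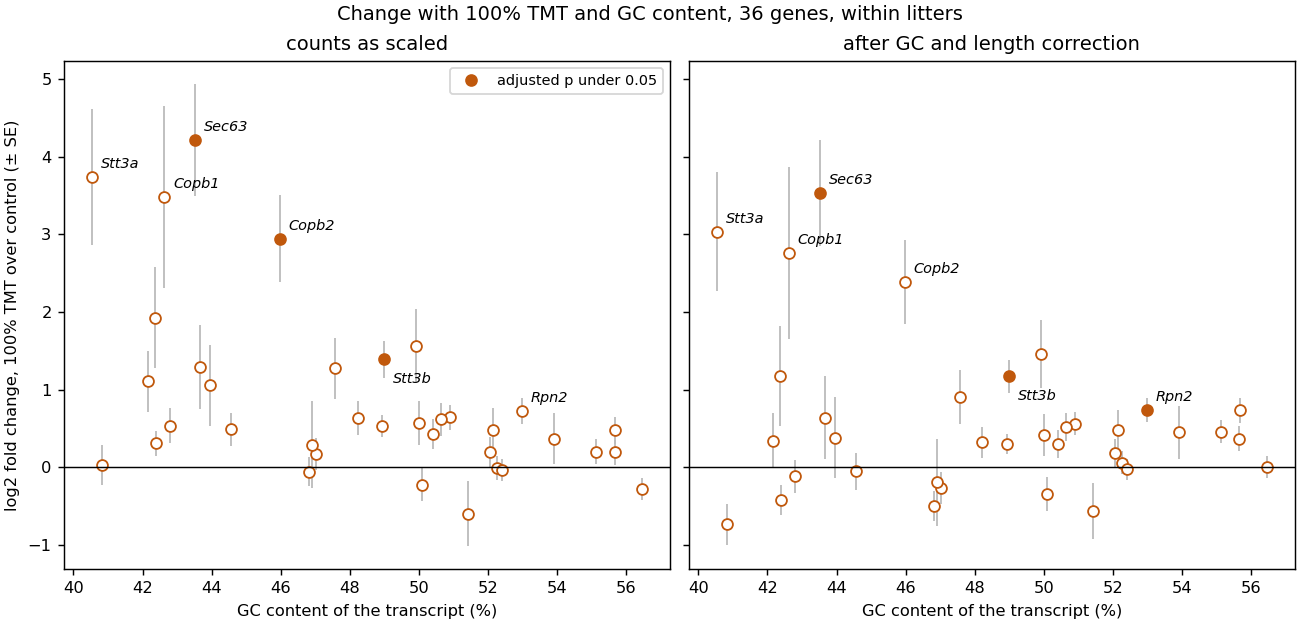
Log2 fold change of the 36 tested members at 100% TMT against controls (y axis) by transcript GC content in percent (x axis), from the blocked fit before and after a GC and length correction. Before the correction the Spearman correlation is -0.50, with Sec63, Stt3a, Copb1 and Copb2 high at the left. After it the correlation is -0.05.

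Neighbouring steps of the pathway were read from 5 further lists in the same blocked fit of 100% TMT. The last of them, the unfolded protein response list, shares some genes with the members. None of the 6 other OST subunits, 16 tested genes of the signal recognition particle, its receptor and signal peptidase, or 32 tested coat regulators and cargo receptors was called. Before adjustment, 1, 2 and 5 genes of these lists had a p under 0.05 upward and 0, 1 and 2 downward, where 11.4% of all genes had one upward and 8.19% downward. Of 22 tested genes that build or trim the dolichol-linked glycan, 8 were higher at an unadjusted p under 0.05 (11.4% of all genes) and 2 passed upward (1.84% of all genes). Uggt1, the folding sensor that returns misfolded glycoproteins to calnexin, had 45.8, 65.9, 60.0 and 64.8 CPM at 100% TMT, against 37.5, 19.5, 23.8 and 32.6 CPM in controls (log2 fold change 1.14, edgeR adjusted p = 0.046). Alg11, a mannosyltransferase of the glycan donor, had 19.2, 4.26, 8.15 and 26.9 CPM at 100% TMT, against 5.49, 0.855, 0.142 and 1.11 CPM in controls (log2 fold change 3.56, edgeR adjusted p = 0.0415). Its controls lay near the floor and rest on very few counts, so the size of this change is uncertain.

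The unfolded protein response list held 31 tested genes. Among them are the members Sec61a1, Calr, Pdia4 and Pdia6, so the counts here include genes already counted above. Before adjustment 10 of them had a p under 0.05 upward (11.4% of all genes) and 2 downward (8.19%). Hspa5 alone passed, 1 of 31, which is near the 1.84% of all genes called higher. Hspa5 had 469, 499, 417 and 725 CPM at 100% TMT, against 181, 226, 246 and 265 CPM in controls, with no overlap (log2 fold change 1.24, edgeR adjusted p = 0.0293). With the GC and length correction it had 0.66 and did not pass (edgeR adjusted p = 0.168), as Uggt1 and Alg11 did not (edgeR adjusted p = 0.0619 and 0.0842). Over 23 alternatives Hspa5 was called in 11, Uggt1 in 7 and Alg11 in 6, and Uggt1 and Alg11 lost the call whichever litter was left out, and Hspa5 without litter 2, 3 or 4.

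Marker levels of other cells moved beside these genes. Of 13 tested markers of Bowman gland and secretory cells, Agr2, Reg3g and Dmbt1 rose with 100% TMT, against 1.84% of all genes called higher, with log2 fold changes of 3.46, 3.80 and 1.15 (edgeR adjusted p = 0.0314, 0.03 and 0.0268 with the block). Another of the list, Bpifb3, chosen after its values were seen, had 2827, 2006, 2487 and 2486 CPM at 100% TMT, against 4524, 3175, 3391 and 3038 CPM in controls, lower in each litter. The 14 of 15 listed markers found in the data summed to 55670 to 71840 CPM at 100% TMT and 33520 to 80160 CPM in controls. The highest value was the control of litter 4, and none of the 14 was at 0 in either group. Lcn11 alone had 25640 to 39770 CPM at 100% TMT and 6032 to 49690 CPM in controls.

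The 6 markers of ensheathing glia summed to 738 to 835 CPM at 100% TMT and 1168 to 1389 CPM in controls, with no overlap. Apoe, a lipid carrier among them, made up most of each sum, with 516 to 694 CPM at 100% TMT and 1004 to 1250 CPM in controls. Apoe fell (log2 fold change -0.81, edgeR adjusted p = 0.0196 with the block), and with the GC and length correction it did not pass (edgeR adjusted p = 0.098). Others of this list are given after their values were seen. Npy was lower in each litter, and Sox10 overlapped, with 56.2 to 118 CPM against 60.4 to 141 CPM in controls. Fabp7 had 83.9, 3.94, 3.71 and 98.2 CPM at 100% TMT, against 7.40, 3.76, 7.09 and 9.07 CPM in controls. The 7 markers of immature neurons summed to 1326 to 2164 CPM at 100% TMT and 2063 to 3066 CPM in controls, and Tubb3, a neuronal tubulin, fell (log2 fold change -1.10, edgeR adjusted p = 0.00603 with the block). Sums of 2 other lists did not overlap either: 4 endothelial markers had 11.9 to 21.5 CPM at 100% TMT and 2.27 to 10.98 CPM in controls, and 5 microvillar markers had 383 to 637 CPM at 100% TMT and 270.3 to 367 CPM in controls. No marker of these was called. Ugt2a1, an odorant-metabolising enzyme of sustentacular cells, rose (2.40, edgeR adjusted p = 0.0309 with the block), but it did not pass with the GC and length correction (1.59, edgeR adjusted p = 0.13). Cbr2 of the same list, chosen after its values were seen, had 3596, 4565, 5350 and 4606 CPM at 100% TMT, against 4663, 6321, 6230 and 5885 CPM in controls, lower in each litter. The 8 sustentacular markers summed to 7409 to 9921 CPM at 100% TMT and 7905 to 8858 CPM in controls. No marker was at 0 in any of these groups, and the part of these cells in the result was not tested. Without the block edgeR called no marker of any list at 100% TMT.

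At 1% TMT no member was called against controls, with or without the block (edgeR, against 0.0% and 0.00756% of all genes); DESeq2 called none without the block and 1 with it (0.476% of all genes called higher). At an unadjusted p under 0.05 edgeR had 4 members higher without the block (2.94% of all genes) and 5 with it (4.9%), and 0 lower. The 1% library of litter 1 stood above the other 1% libraries in Copb2, Stt3a, Copb1 and Sec63. Transcripts under 45% GC took 13.1% of its counts, against 7.68% to 9.34% in the other 1% libraries. Of the further members under 45% GC, Canx, Sec23a, Sec24a and Sec61g were also highest there, and Ssr1, Arcn1 and Sar1b lay in between. Sec62 and Ssr3 were lowest there, Ssr3 (40.8% GC) at 20.2 CPM against 45.3, 44.8 and 33.9 CPM in the others. The part of base composition was not tested. Copb2 had 244, 14.3, 18.4 and 73.4 CPM at 1% TMT in litters 1 to 4, above its litter's control each time (log2 fold change 1.88, edgeR adjusted p = 0.689 with the block). Stt3a had 196, 7.82, 7.35 and 14.9 CPM at 1% TMT, and Copb1 had 179, 3.39, 3.18 and 9.11 CPM. Sec63 had 70.0, 3.69, 1.22 and 32.5 CPM at 1% TMT, and was above its control in 3 of 4 litters. Stt3b did not show that split, with 157, 128, 185 and 129 CPM at 1% TMT and a log2 fold change of 0.61 (edgeR adjusted p = 0.694 with the block). Rpn2 had 450, 472, 622 and 510 CPM at 1% TMT (log2 fold change 0.38, edgeR adjusted p = 0.696 with the block). The mean level of Stt3b by dose was 103 ± 34.0 CPM in controls, 150 ± 26.8 CPM at 1% and 252 ± 35.7 CPM at 100% TMT (SD, n = 4 each).

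Set directly against 1% TMT, 100% TMT gave no call among the members (edgeR with or without the block, where 0.0% of all genes passed in either fit; DESeq2 called 0 without the block and 1 with it, against 0.401% of all genes higher). At an unadjusted p under 0.05 edgeR had 4 higher without the block (2.22% of all genes) and 7 with it (4.28%), and 0 lower. Every 100% library of Stt3b lay above every 1% library, and the log2 fold change was 0.79 (SE 0.23, edgeR adjusted p = 0.518 with the block). Sec63 was higher at 100% in 4 of 4 litters by 1.17 to 34.8 times (log2 fold change 2.70, edgeR adjusted p = 0.468 with the block). Rpn1 had 442, 746, 639 and 580 CPM at 1% TMT, below the 100% library of each litter (log2 fold change 0.43, edgeR adjusted p = 0.567 with the block). Ssr2, a TRAP subunit, had 337, 712, 418 and 520 CPM at 100% TMT, against 292, 373, 372 and 417 CPM at 1% TMT (log2 fold change 0.45, edgeR adjusted p = 0.567 with the block). Pdia4 had 87.3, 111, 54.9 and 124 CPM at 100% TMT, against 96.3, 35.1, 29.0 and 63.9 CPM at 1% TMT, with litter 1 in the opposite direction to the others (edgeR adjusted p = 0.585 with the block). This comparison and the one with controls share the 100% libraries.

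**Figure D4:**
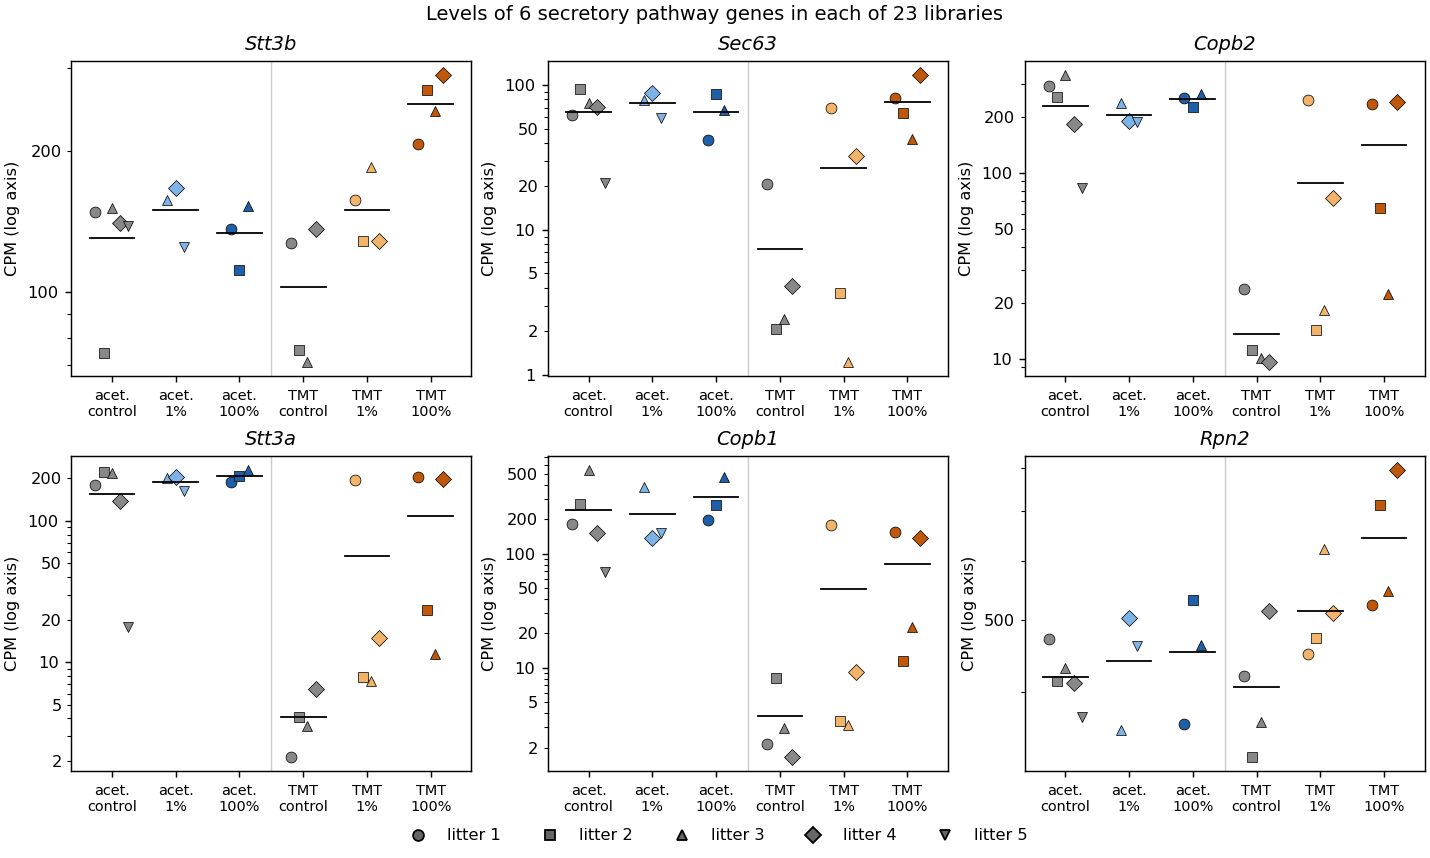
CPM (y axis, log scale) of Stt3b, Sec63, Copb2, Stt3a, Copb1 and Rpn2 in each of the 23 libraries, by odor and dose, with marker shape for litter and a bar at the group mean. The TMT controls of Stt3a and Copb1 lie under 10 CPM, while all but 1 acetophenone library of Stt3a lie between 139 and 229 CPM.

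With acetophenone, a sweet-smelling ketone, the same genes did not pass the test at either dose. At 100% acetophenone edgeR called 0 of 35 members without the block (0.0% of all genes) and 0 with it (0.0951%), and DESeq2 called 0 in both fits. At an unadjusted p under 0.05 there were 0 without the block, and with it 0 higher and 1 lower, Ssr4 (1.83% of all genes lower). Sec61b and Sec61g did not pass the count filter. The median log2 fold change was -0.14 with 9 of 35 above 0, and leaving out 1 library or litter moved it between -0.26 and -0.05; it was -0.26 without the control of litter 2. Stt3b had 137, 112 and 153 CPM at 100% acetophenone in litters 1 to 3, against 148, 74.5 and 151 CPM in the controls; the blocked edgeR fit gave a log2 fold change of 0.14, an SE of 0.20 and an adjusted p of 0.956. Copb2 had 253, 225 and 264 CPM at 100% acetophenone, against 292, 254 and 333 CPM in controls, lower in each litter (log2 fold change -0.25, SE 0.16, edgeR adjusted p = 0.897 with the block). These values overlap or lie within the spread of the litters.

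All 4 TRAP genes had a negative fold change at this dose. In the blocked fit 9 of the 35 tested members were above 0, and the median over all genes with a known transcript was 0.01. Ssr4 had 251, 206 and 191 CPM at 100% acetophenone, against 446, 261 and 201 CPM in controls (log2 fold change -0.43, SE 0.19, edgeR adjusted p = 0.897 with the block), and Ssr2 had 151, 190 and 155 CPM, against 239, 200 and 187 CPM in controls. Their sum was 0.601 to 0.905 times that of the litter's control. Dad1 had 224, 289 and 158 CPM at 100% acetophenone, against 328, 343 and 177 CPM in controls. Sec24a, a rarer cargo-binding subunit, had 6.35, 12.7 and 13.4 CPM at 100% acetophenone, against 12.4, 28.0 and 15.1 CPM in controls. Canx went the other way, with 89.9, 52.3 and 72.4 CPM at 100% acetophenone, against 88.4, 31.4 and 42.3 CPM in controls.

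At 1% acetophenone edgeR again called 0 of 35 members, without the block (0.0% of all genes) and with it (0.00828%), as did DESeq2 in both fits. Without the block none had an unadjusted p under 0.05, and with it 1 was higher (4.81% of all genes) and 2 were lower (3.7%). Pdia3 had 54.1, 47.3 and 37.2 CPM at 1% acetophenone in litters 3 to 5, against 35.0, 28.7 and 23.6 CPM in the controls (log2 fold change 0.68, SE 0.18, edgeR adjusted p = 0.423 with the block). Each 1% library was above its control by 1.55 to 1.65 times, and the groups did not overlap. Copa had 407, 165 and 200 CPM at 1% acetophenone, against 510, 208 and 280 CPM in controls, lower in each litter (log2 fold change -0.37, edgeR adjusted p = 0.512 with the block), and Copg1 (γ-COP) had 197, 172 and 187 CPM, against 274, 187 and 263 CPM in controls (edgeR adjusted p = 0.573 with the block). Sec63 and Pdia4 had log2 fold changes of 0.60 and 0.35 (edgeR adjusted p = 0.59 and 0.603 with the block).

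Between the acetophenone doses, fitted with litter since they share only litter 3, edgeR called 0 of 35 members (0.0% of 12873 genes). At an unadjusted p under 0.05 there was 1 upward (3.52% of all genes) and 3 downward (2.75%), and DESeq2 called 0. The fit without litter also called 0, against 0.0% of all genes. Dad1 had the lowest p, at -0.49 on the log2 scale for 100% against 1% (SE 0.18, edgeR adjusted p = 0.754). Sec63, Pdia4 and Ssr4 had -0.75, -0.47 and -0.44, and Copa 0.39 (edgeR adjusted p between 0.785 and 0.786 in all 4).

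Whether the odors differed was tested as the acetophenone response minus the TMT response at the same label dose. At 100% edgeR called 0 of 36 members without the block and 0 with it, against 0.0% of 13831 genes in either fit, and DESeq2 called 0 without the block and 3 lower with it (2.15% of all genes). At an unadjusted p under 0.05 there were 8 lower and 0 higher without the block (3.48% of all genes lower), and 14 lower and 0 higher with it (7.51%). The median difference was -0.63 on the log2 scale without the block and -0.57 with it, against -0.10 and 0.00 for all genes. Sec63 had the lowest p, with a difference of -4.32 (SE 0.85, edgeR adjusted p = 0.0736 with the block), followed by Copb2 at -3.03 (adjusted p = 0.115), Stt3b at -1.18 (0.148), Stt3a at -3.55 (0.185) and Ssr2 at -0.73 (0.215). Without the 100% TMT library of litter 1 the blocked fit called 2 members, and without TMT litter 1 it called 1. At 1% edgeR called 0 of 36 in both fits (0.0% and 0.00723% of all genes), DESeq2 0, and before adjustment 3 and 2 members had a p under 0.05 downward (1.34% and 2.85% of all genes). Copb2 had -1.66 and Copa -1.30 there, both with an edgeR adjusted p of 1.0 with the block, and Sec24c, Sec24d and Pdia3 had -0.64, -0.48 and 1.18.

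Without odor some members stood far apart between the experiments. No test was made, since experiment and batch cannot be told apart. On a scale of CPM per kilobase of transcript, Stt3a had 26.4 ± 14.3 in the acetophenone controls (SD, n = 5) and 0.693 ± 0.308 in the TMT controls (SD, n = 4), while Stt3b had 30.9 ± 7.52 and 24.3 ± 8.05. Copb1 had 72.9 ± 54.2 in the acetophenone controls and 1.12 ± 0.902 in the TMT controls, and Copb2 75.0 ± 32.3 and 4.46 ± 2.20. Sec63 had 10.8 ± 4.50 in the acetophenone controls and 1.21 ± 1.49 in the TMT controls. Some other members ran the other way. Ssr4, of TRAP, had 365 ± 127 in the acetophenone controls and 1020 ± 329 in the TMT controls, and Cope, of the COPI coat, 406 ± 107 and 858 ± 239. The share of counts on transcripts under 45% GC was 10.2% to 18.8% in the acetophenone controls and 6.92% to 8.21% in the TMT controls, and its part in these levels was not tested.

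A few libraries moved several members at once. The acetophenone control of litter 5 had 17.9 CPM of Stt3a where the other acetophenone libraries had 139 to 229 CPM, and it was also lowest for Sec63, with 21.0 CPM, Copb1, with 69.5 CPM, and Copb2, with 82.8 CPM. In the TMT experiment Stt3a, Copb1 and Copb2 were high together in 3 libraries, both exposed libraries of litter 1 and the 100% library of litter 4, and lower in the controls of the same litters. Transcripts under 45% GC took 11.3% and 13.1% of counts in the 100% and 1% libraries of litter 1. They took 12.8% in the 100% library of litter 4, and 6.92% to 9.34% in the other TMT libraries. The acetophenone control of litter 5 had 10.2%, where the other acetophenone libraries had 11.3% to 24.1%. The part of base composition in these levels was not tested.

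The catalytic paralogs show the split between libraries as a ratio. On the per-length scale Stt3b made up 58.6%, 94.1%, 96.7% and 67.1% of the Stt3a and Stt3b sum at 100% TMT in litters 1 to 4, against 98.8%, 96.2%, 96.5% and 96.7% in the controls. At 1% TMT it made up 52.7%, 95.8%, 97.2% and 92.3%. In the acetophenone libraries it lay between 31.9% and 58.4%, except at 91.5% in the control of litter 5. The inner coat paralog Sec23b, by contrast, held at least 92.9% of the Sec23a and Sec23b sum in all 23 libraries.

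Arcn1 (δ-COP) and Calr also share reads with other loci, with unique counts at 25.2% and 73.4% of the estimated counts. On the estimated counts, in the blocked fit of 100% TMT, their log2 fold changes were 0.88 (edgeR adjusted p = 0.143) and 0.56, against 1.06 and 0.57 on the unique counts.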

How the data were processed

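RNA pulled down with a pS6 antibody was amplified and made into Illumina Nextera libraries, per the labels' protocols. The deposited tables hold 20 value columns a gene with no header. Column 2 held whole numbers in all 23 files and was read as the authors' unique counts, and the last column as estimated counts that include reads matching several places; both readings come from the values, and the other 18 columns were not used. Bowtie, bedtools and mm10 are named in the submitters' processing notes; no source used here gives their versions or the annotation. Unassigned reads are not listed. The library kit does not mark strand, so overlapping genes cannot be told apart.

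Counts were fitted in edgeR 4.0.16 (R 4.3.3) by quasi-likelihood with TMM scaling, filterByExpr at a minimum count of 10 and Benjamini-Hochberg adjustment over all genes, with a threshold of 0.05; 36 members were tested in the TMT fits and 35 in the acetophenone fits. The acetophenone fits used the compared litters and the TMT fits all 12 TMT libraries. The main model had no litter term except between acetophenone doses, which share 1 litter; a litter block was fitted beside it. The labels give the litter, so same-numbered libraries are pairs, and their deviations correlated by 0.57 to 0.888 with acetophenone and -0.046 to 0.385 with TMT. CPM are per TMM-scaled library, and SE is the log2 fold change over the root of its F statistic. The alternatives were DESeq2 1.42.0 (test and size factors), no filter, the estimated counts (rounded), a spline correction (5 degrees of freedom) for GC and length, only the groups compared, raw totals, and leaving out each litter or library. No library pair held identical values. The scripts were tested on simulated counts. Promoters are from RefSeq (GRCm38.p6), 1 matched window is not reported here, and transcript lengths from GENCODE.

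The members and lists were chosen with earlier results of these data known. Values in every library are given for Stt3b, Copb2 and up to 5 members of smallest p a comparison, and listed pathway genes are named where called, up to 6 a list. Copb1, Cope, Sec23a, Pdia6 and Rpn1 are shown by library after their values were seen. Replicates are separate litters, with 3 to 5 a group.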

Additional observations from a re-analysis of the deposited data

Results flagged for a closer look

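Among 96 groups of 4 or 5 libraries, 5 held a value far from the others; chance gives this in about 1 in 20 groups. Copb2 and Sec63 were high in the TMT control of litter 1, at 23.6 CPM where the other controls had 9.63 to 11.1 CPM, and at 20.8 CPM where they had 2.05 to 4.07 CPM. Stt3a was high in the 1% TMT library of litter 1, at 196 CPM against 7.35 to 14.9 CPM in the other 1% libraries. The summed COPII genes were high in the TMT control of litter 4, at 1826 CPM, where the other controls had 1409 to 1477 CPM. Stt3b was low in the acetophenone control of litter 2, at 74.5 CPM, where the other controls had 138 to 151 CPM.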

How the results depend on the processing

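For 100% TMT against controls, the 0 members called became 3 with the replicate block and 6 with DESeq2. The 3 members called within litters became 11 with DESeq2, 6 without the filter, 1 with only the libraries of the 2 groups, and 0 to 5 when a litter or library was left out. The block turned no other comparison's count. DESeq2 with the replicate block called 1 member for 1% TMT and 1 for 100% against 1% TMT. For the 100% difference between the odors, 0 within litters became 3 with DESeq2, 2 without the filter, and 0 to 2 leaving out a litter or library. Shares over all genes are not given for the unfiltered, 2-group and leave-out fits, so their counts of members cannot be read against them. The acetophenone median ran from -0.255 to -0.047 as a litter or library was left out. Pdia4 between acetophenone doses was 0.006 without the block, where it was -0.47 with it; the cause was not tested. Over 23 alternatives Stt3b at 100% TMT had log2 fold changes of 1.18 to 1.59 and was called in 13 (adjusted p 2.57e-06 to 0.125 by edgeR or DESeq2), Sec63 3.46 to 4.78 in 13 (8.13e-10 to 0.193), and Copb2 2.32 to 3.53 in 10 (2.72e-07 to 0.167).

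Summed CPM of the members moved with the scale. With raw library totals they were 6449 in controls, 6361 at 1% and 6332 at 100% acetophenone, where the main values were 5990, 5801 and 5832. For TMT they were 6217 in controls, 6649 at 1% and 7615 at 100%, where the main values were 6745, 7046 and 8376. The acetophenone controls thus lay above the TMT controls with raw totals and below them with TMM scaling. With the estimated counts they were 4632 in controls, 4594 at 1% and 4511 at 100% acetophenone, and 4238 in controls, 4475 at 1% and 5002 at 100% TMT. Fitting only the compared groups with the block was not possible between the acetophenone doses, which share 1 litter. Low-count genes such as Copb1, with 9 to 48 counts in the TMT controls, limit the precision.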
